A study of Caenorhabditis elegans with 2 samples.

Results

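The genes described here are the protein-coding genes of Caenorhabditis elegans whose symbol starts with sec- or vps-, names that mark counterparts of yeast secretion and vacuolar protein sorting genes. Taken from the WBcel235 annotation by symbol alone, they number 50 of 19985 protein-coding genes, 19 of them sec- genes and 31 vps- genes. Binding of DPL-1 to them was read from chromatin immunoprecipitation and sequencing (ChIP-seq) of whole young adult worms of mixed sex, with 2 biological replicates in 1 group and no other genotype or treatment to compare with. All samples came from strain YL390, which per the labels has the genotype unc119(ed3)III and the transgene vrIs48, in which pPIE-1 drives DPL-1 joined to GFP and FLAG beside unc-119 (+). The pie-1 promoter is generally used for germline expression, and which cells of the worm held the tagged protein was not measured, so binding refers to chromatin of the whole animal carrying this transgene. Read depth is unknown and the control was not analysed here, so no counting error goes with a peak.

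DPL-1 is the worm DP protein. It pairs with E2F-type factors to recognise DNA, and with the pocket protein LIN-35 it is part of the DREAM complex, which is known for repressing cell cycle and germline genes. The sec- and vps- genes, by contrast, encode the machinery that moves proteins through membranes in every cell. New proteins enter the endoplasmic reticulum (ER) through the SEC61 translocon and leave it in vesicles coated by COPII, and the exocyst tethers secretory vesicles at the plasma membrane. On the inward route ESCRT complexes sort membrane proteins at endosomes, HOPS and CORVET tether endosomes and lysosomes, and retromer and GARP act in the return of cargo to the Golgi. The roles given below are those established for the yeast or mammalian counterparts.

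Bound genes are those with at least 1 transcript start whose window, 1000 bp upstream to 500 bp downstream, held a summit from the authors' optimal IDR list. IDR, the irreproducible discovery rate, scores how alike peaks rank in separate calls. That list held 1546 peaks on ce11, the same assembly as WBcel235, with authors' signal values of 23.7 to 738, and it was taken from a pooled list of 30000 peaks. The authors' signal ranks peaks within a list, and rank 1 is the highest signal. Peaks of the bound sec- and vps- genes had the same rank in the optimal list as in the pooled list. The optimal list thus followed pooled signal down to these peaks, and it included peaks with no match in 1 replicate list. Each replicate has its own list of 30000 peaks, most of them too weak to pass.

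DPL-1 was found at 20 of the 50 genes (40%), against 9.22% of all protein-coding genes. All 3 subunits of the translocon were bound and so were 8 of 11 ESCRT genes, while none of the 3 retromer genes and 1 of 8 HOPS and CORVET genes was. The COPII coat had 3 of 7, the exocyst 3 of 6, GARP and EARP 1 of 5 and the phosphatidylinositol 3-kinase pair 1 of 2. The remaining genes, for a signal peptidase subunit, a pair of ER SNAREs, an SM protein and a lipid transfer protein, were not bound. These counts are descriptions of small groups, and no test between complexes was made.

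All 3 bound genes whose summit region holds the E2F-type sequence are shown first, as the letters that E2F and DP proteins are known to read. A summit region is the DNA within 100 bp, and a match there, on the plus or the minus strand, is TTCCCGC or TTCGCGC or TTGCCGC or TTGGCGC. Each line gives 30 bases read from the RefSeq WBcel235 genome, 5′ to 3′ on the strand of the match, with the match in capitals.
sec-61.G, chrV:10897393-10897422, minus strand: ttcttatttgaaTTGCCGCcaatggcaatg
sec-24.2, chrIV:12361001-12361030, minus strand: gtatgctggtttTTCGCGCaaaaaaaatta
vps-60, chrV:8606488-8606517, plus strand: gtgcgtcgcggTTCGCGCgcgtctcccgtt
The match was centred 33 bp from the summit at sec-61.G, 30 bp at sec-24.2 and 9 bp at vps-60. In the sec-61.G line the bases just before the capitals, tttgaa, are a match to the CHR-type sequence (TTCGAA or TTTGAA), so the E2F-type and CHR-type matches abut there. The vps-60 match overlaps a match to the reversed control sequence described with the motif counts, as does the vps-22 match shown next.

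The other 17 bound genes lacked the E2F-type sequence. For 3 of them, from ESCRT, the lipid kinase and HOPS, the CHR-type sequence is shown, which the LIN-54 subunit of DREAM is known to read. They were chosen after their values were seen, and TTCGAA reads the same on both strands.
vps-22, chrIII:4963115-4963144, minus strand: gaaaatccgcgctTTTGAAagaagcggctg
vps-15, chrII:11916394-11916423, plus strand: gtagttcatgtTTCGAAaattactttcagt
vps-33.1, chrIII:8700844-8700873, plus strand: ttttttcatttTTCGAAgtttttgactcat
These matches were centred 23.5 bp (vps-22), 52.5 bp (vps-15) and 80.5 bp (vps-33.1) from the summit. The vps-33.1 match overlaps a match to its reversed control sequence. A match is only a string of letters near a summit and does not show that a factor sits on it.

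The translocon genes were bound throughout, with very different strength. For sec-61.G, the small tail-anchored gamma subunit, the signal was 294 at rank 8 of the pooled list, with rank 9 in replicate 1 (signal 85.0) and rank 10 in replicate 2 (signal 209). Its peak ran from chrV:10897241 to 10897483 and its summit lay 231 bp upstream of the start, in intergenic DNA. This was the strongest peak at any sec- or vps- gene, and it was near the top in both replicates. The same summit was also 831 bp upstream of F32D8.13, a gene on the same strand. The beta subunit gene sec-61.B had a signal of 57.0 (rank 520, and 568 and 631 in replicates 1 and 2). Its summit, 477 bp upstream, was closer to the start of the divergent gene trap-3 (293 bp), which encodes a subunit of the translocon-associated complex, and it lay in an exon of the non-coding gene Y38F2AR.17. The gene of the channel-forming alpha subunit, sec-61.A, had the weakest of these peaks (signal 29.7, rank 1183), inside its own 5′ UTR, 84 bp downstream of the start. It ranked 890 in replicate 2 but 20460 in replicate 1, where the best peak in the window was elsewhere, 217 bp upstream, at rank 6840. The sec-61.A peak therefore rests on replicate 2, and its summit was also in the window of the ribosomal protein gene rps-18.

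The COPII coat was bound in part, while the signal peptidase gene sec-11 had no pooled peak in its window. In the COPII group, peaks lay at the cargo-binding subunit genes sec-24.1 (signal 49.4, rank 618) and sec-24.2 (signal 31.6, rank 1088) and at sec-12, the exchange factor that starts coat assembly (signal 38.6, rank 844). Ranks in replicates 1 and 2 were 559 and 709 for sec-24.1, 1514 and 1119 for sec-24.2, and 985 and 928 for sec-12, so all 3 peaks were among the 1546 strongest of both replicates. Their summits were 138, 193 and 162 bp upstream. That of sec-24.1 overlapped annotated non-coding RNA exons, and that of sec-24.2 was shared with the divergent deadenylase gene ccr-4. In replicate 1 the sec-24.2 summit lay 293 bp upstream, on the 100 bp limit for matching summits, and its rank of 1514 was close to 1546. The paralogs sec-24.1 and sec-24.2 were thus both bound, while their inner-coat partner sec-23 had no peak in its window in the pooled list or in either replicate list. The ER exit site scaffolds sec-16A.1 and sec-16A.2 were unbound, with best pooled ranks of 24431 and 10601.

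For sec-31, the outer coat gene, the replicates differed. It was not bound, and its best pooled peak ranked 19505 (signal 5.71), yet replicate 1 had a peak of rank 753 (signal 15) 547 bp upstream and replicate 2 had none in the window. The nearest optimal IDR summit lay 1029 bp upstream of sec-31, just past the window, next to the divergent gene cbd-1, which is bound and encodes an eggshell chitin-binding protein. The ER SNARE genes sec-20 and sec-22, which act in transport between Golgi and ER, had best pooled ranks of 17551 and 5683.

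The bound exocyst genes sat near the end of the optimal list. Among subunits of this vesicle tether, sec-3 had a signal of 26.9 (rank 1327), sec-8 had 25.6 (rank 1413) and sec-15 had 24.6 (rank 1487). None was strong in both replicates. The sec-3 peak ranked 932 in replicate 2 and had no match within 100 bp in replicate 1, sec-15 ranked 4129 in replicate 1 and 1333 in replicate 2, and sec-8 ranked 889 in replicate 1 and 2988 in replicate 2. The sec-15 and sec-8 summits were nearer to the divergent starts of C28G1.2 and Y106G6H.6 than to their own. The other subunit genes sec-5, sec-6 and sec-10 had best pooled ranks of 7736, 16677 and 19345, far below the bound ones. Both sec-3 and sec-15 are on chromosome X, where 31 of 2731 genes (1.14%) were bound.

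ESCRT had the most bound genes of any complex. Counting vps- genes only, 1 of 2 ESCRT-I genes, 2 of 3 ESCRT-II genes and 5 of 6 genes of ESCRT-III with its ATPase were bound. ESCRT genes with other names are counted with the partners below. The strongest was vps-22 of ESCRT-II (signal 211, rank 34, and 55 and 27 in replicates 1 and 2). Its summit was 612 bp upstream of vps-22 but only 61 bp upstream of C27F2.9, a gene on the same strand that overlaps it, so the peak cannot be assigned to vps-22. Next was vps-4, the ATPase that takes ESCRT-III filaments apart (signal 102, rank 219, and 390 and 185). Its summit lay 268 bp upstream in intergenic DNA and in no other gene's window. The ESCRT-III-related gene vps-60 (signal 63.3, rank 462, and 415 and 468) likewise had its peak, 365 bp upstream, to itself. At vps-4 and vps-60 the ranks thus placed the peaks high in both replicates.

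The remaining ESCRT peaks were weaker, and 4 of these 5 were among the 1546 strongest peaks of 1 replicate alone. The ESCRT-I gene vps-37 (signal 38.7, rank 840) ranked 678 in replicate 2 and had no match in replicate 1, and vps-32.1, the main filament subunit (34.3, rank 989), ranked 747 in replicate 2 with no match in replicate 1, where the best peak in its window (rank 2203, 725 bp upstream of the start) lay just past the 100 bp limit from the summit. In the other direction, the ESCRT-II gene vps-25 (34.9, rank 968) ranked 418 in replicate 1 and 3423 in replicate 2, and vps-24, another ESCRT-III subunit (31.5, rank 1089), ranked 388 and 3212. The weakest was vps-20, which starts filament assembly (24, rank 1527), with similar ranks of 1688 and 1710 in replicates 1 and 2, both outside the 1546 strongest, and with its summit in its own 5′ UTR 112 bp downstream of the start. Just below the optimal list came vps-28 of ESCRT-I (best pooled rank 1621, signal 22.7) and vps-2 of ESCRT-III (1964, signal 19.6), whereas vps-36 of ESCRT-II was at 11424. Neighbours shared several of these peaks, namely eif-1 and pigb-1 that of vps-24, eif-4A3 that of vps-20, icd-1 that of vps-32.1 and uba-2 that of vps-25.

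HOPS and CORVET had 1 bound gene of 8 (12.5%), a share near the 9.22% of all protein-coding genes. These tethers share a core of vps-11, vps-16, vps-18 and the SM protein gene vps-33.1, and of that core vps-33.1 alone was bound (signal 34.1, rank 995, and 828 and 1708 in replicates 1 and 2). Its summit was 150 bp upstream, between vps-33.1 and the divergent gene sdz-1. The HOPS gene vps-39 (best pooled rank 2280, signal 17.3) and the core gene vps-18 (2754, signal 15.1) came next, followed by vps-33.2, related to mammalian VPS33B (4748), and the CORVET gene vps-8 (5192). No pooled or replicate peak lay in the windows of vps-11, vps-16 or the HOPS gene vps-41.

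No retromer gene was bound, and GARP and the lipid kinase were bound at 1 subunit each. The cargo-recognition trimer of retromer had best pooled ranks of 7114 for vps-35, 19266 for vps-29 and 23501 for vps-26. In GARP and its sister complex EARP, vps-51 had a signal of 159.5 (rank 78, and 117 and 71 in replicates 1 and 2), the third strongest of the 20. This summit was 252 bp upstream of vps-51 and 166 bp upstream of the divergent gene lin-35, which encodes the pocket protein of DREAM, so a single peak stands for both genes. The other subunits vps-52, vps-50, vps-53 and vps-54 had best pooled ranks of 8730, 17413, 18867 and 20949. The regulatory kinase subunit gene vps-15 was bound (34.4, rank 983, and 322 and 2550), with its summit 608 bp upstream and 53 bp from the start of the divergent gene hmg-12, while vps-34, the catalytic subunit, was at 29526. No pooled peak lay in the windows of vps-45, an SM protein of endosome fusion, or vps-13, a lipid transfer protein.

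**Figure D1:**
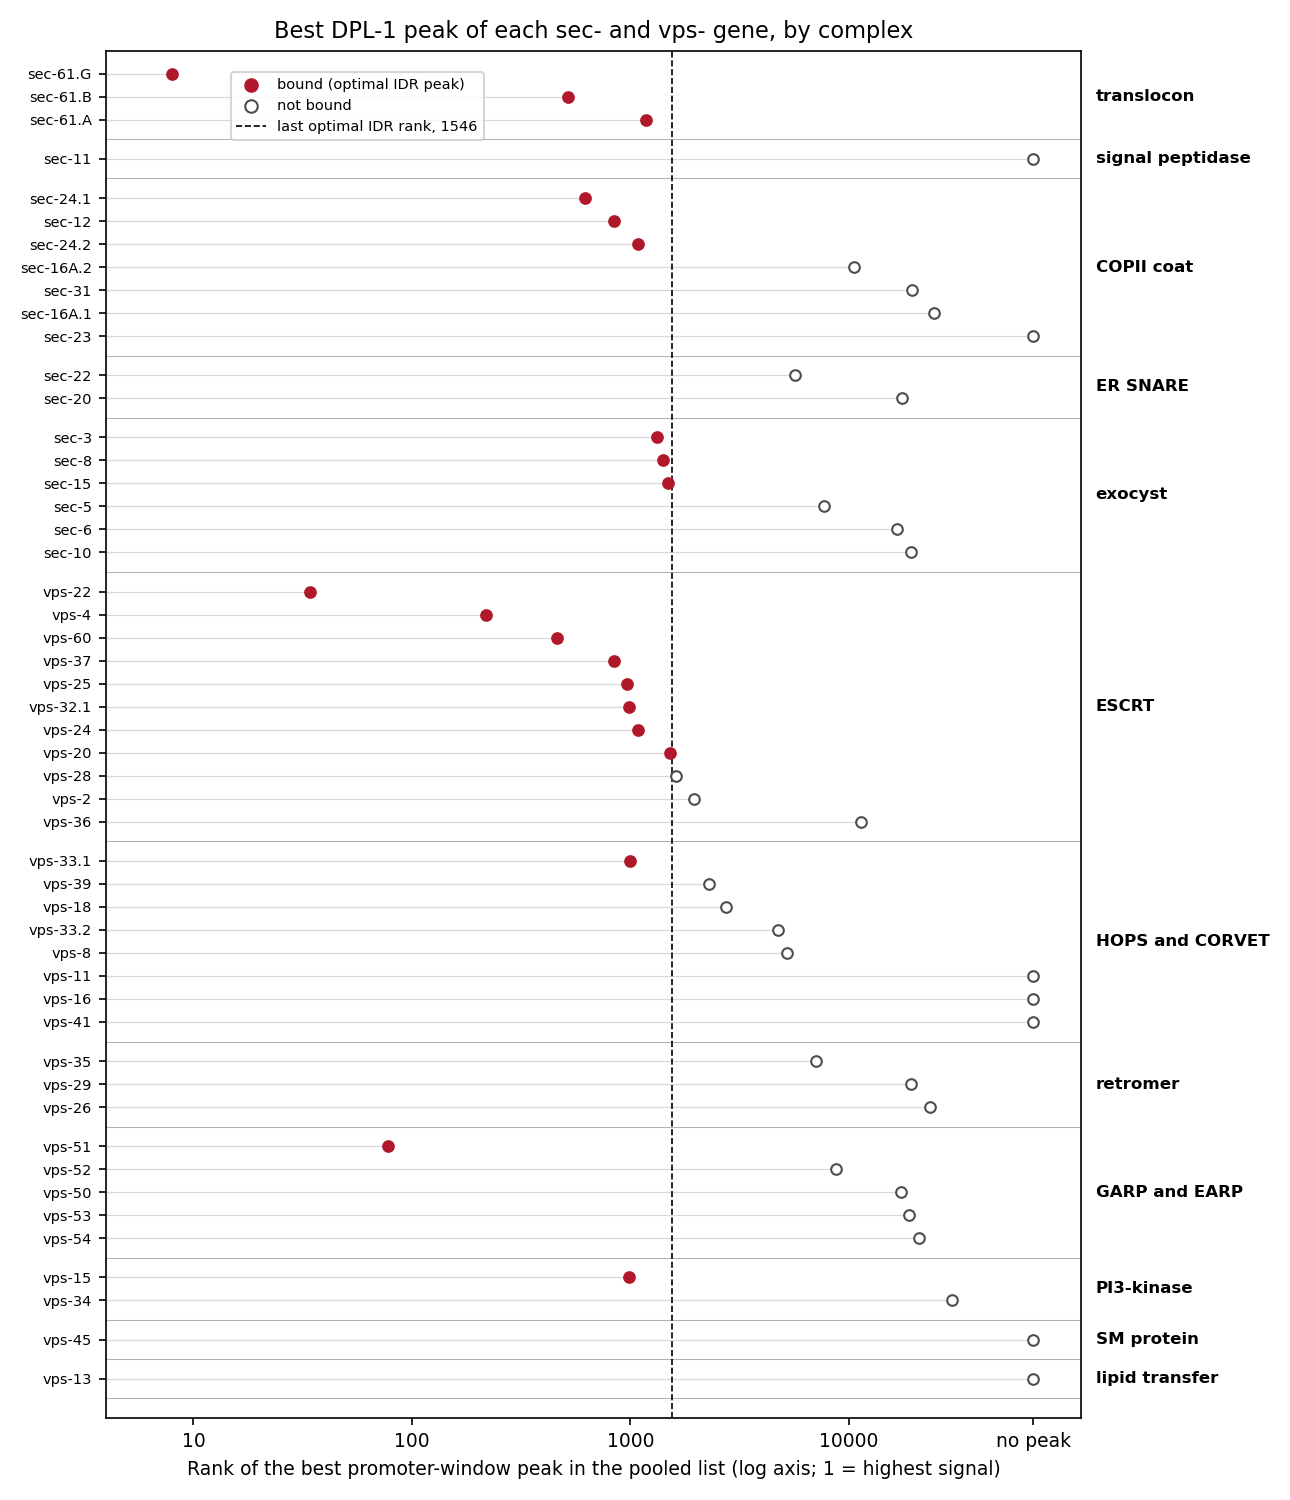
Rank of the best promoter-window peak in the pooled list (log axis, 1 is the highest signal) for each of the 50 genes, grouped by complex, with filled points for the 20 bound genes, open points for unbound genes and the dashed line at rank 1546. Points of the translocon and most of ESCRT lie left of the line, those of retromer lie at 7114 and beyond, and 7 genes have no pooled peak.

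Most of the unbound genes had a weak peak. Of the 30 unbound genes, 23 had some pooled peak in a window and 7 had none. In all, 43 of the 50 genes (86%) had a pooled peak, against 50.4% of all genes. The corresponding shares were 80% of these genes and 50.4% of all genes in the replicate 1 list, and 82% and 49.3% in the replicate 2 list. Those lists reach down to very weak peaks. Among the 1546 strongest peaks of each replicate, 15 of the 50 genes (30%) were marked in replicate 1, against 8.89% of all genes, and 15 (30%) in replicate 2, against 8.82%. Just inside the limit were sec-15 and vps-20, with signals of 24.6 and 24, and just outside were vps-28 and vps-2, with 22.7 and 19.6.

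The bound secretion and sorting genes lay mostly in the lower part of the optimal list. Their median signal was 34.6, against 45.9 over all 1842 bound genes. A peak among the 773 strongest of the optimal list was found at 7 of the 20 (35%), against 55.6% of all bound genes. A summit within 100 bp was found in both replicate lists for 17 of the 20 (85%), against 91.7% of all bound genes, and 9 of the 20 were among the 1546 strongest peaks of both. The 9 were sec-61.G, vps-22, vps-51, vps-4, vps-60, sec-61.B, sec-24.1, sec-12 and sec-24.2. Of the 17 matched peaks, 7 ranked higher in replicate 2.

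**Figure D2:**
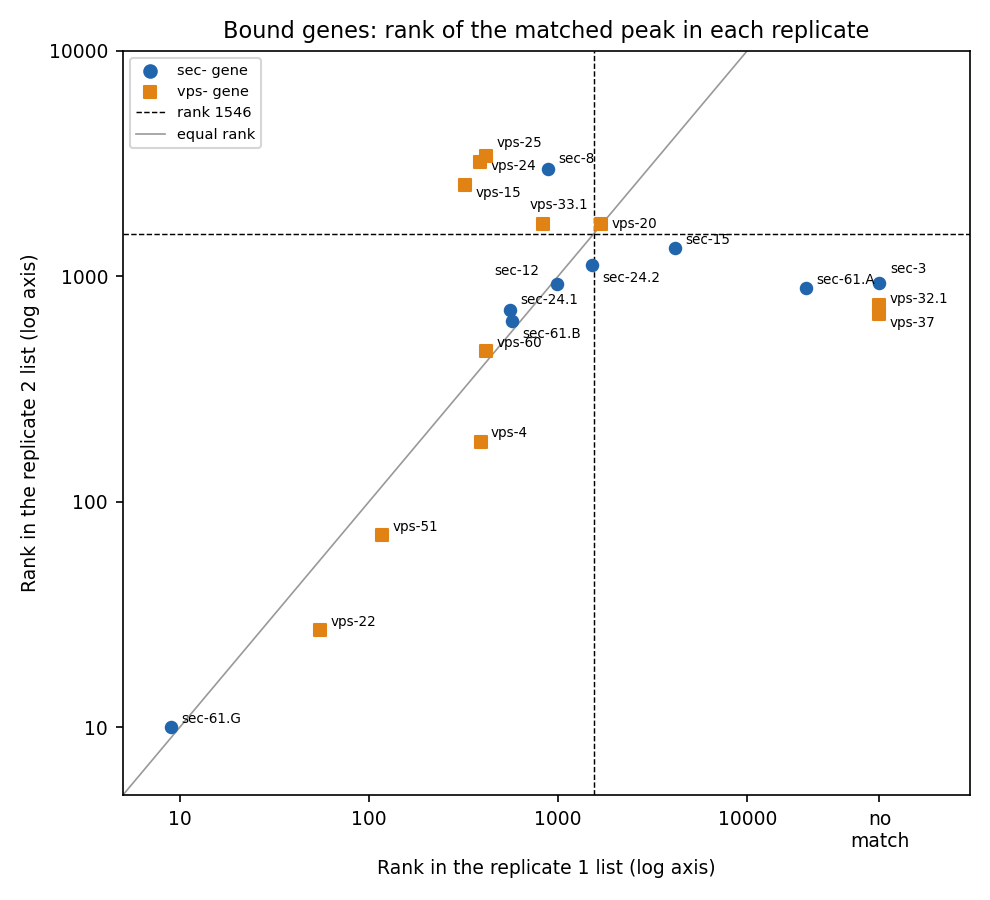
Rank of the matched peak in the replicate 2 list against its rank in the replicate 1 list for each of the 20 bound genes (log axes), with circles for sec- genes, squares for vps- genes, dashed lines at rank 1546 and a grey line at equal rank. The strong peaks from sec-61.G to sec-12 run along the line, vps-15, vps-24, vps-25 and sec-8 rank high in replicate 1 alone, and sec-3, vps-32.1 and vps-37 have no match in replicate 1.

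The bound genes were spread over all chromosomes. On chromosome I 6 of 10 were bound, against 15.1% of all genes there, on II 3 of 10 (9.83%), on III 2 of 8 (16.1%), on IV 4 of 8 (9.63%), on V 3 of 7 (5.67%) and on X 2 of 7 (1.14%). In the optimal list, binding to these genes was not limited to the autosomes, though the X-linked peaks of sec-3 and sec-15 were among the weakest of the 20. Neither gene was bound when replicate 2 was left out, and sec-15 was also lost by nearest start.

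Summits lay mostly just upstream of the gene. In 17 of the 20 genes the summit was upstream of the nearest start, the median distance was -188 bp (negative is upstream), and the extremes were -620 bp (vps-32.1) and 112 bp (vps-20). The window reaches 1000 bp upstream but only 500 bp downstream, which favours upstream summits. Distances and annotations of the summits are not given here for all bound genes. The summit was intergenic at 13 genes, in the gene's own 5′ UTR at 3 (sec-61.A, vps-20 and vps-25, the last only 2 bp into the gene), and in an exon of a non-coding RNA gene at 4 (sec-15, sec-24.1, sec-61.B and vps-32.1). For 14 of the 20 (70%) the same summit also fell in another protein-coding gene's window, against 61.3% of all bound genes, and at 13 the nearest start was the gene's own. A peak in the windows of both genes cannot be assigned to either. The genes with a peak of their own were sec-3, sec-12, sec-24.1, vps-4, vps-37 and vps-60.

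**Figure D3:**
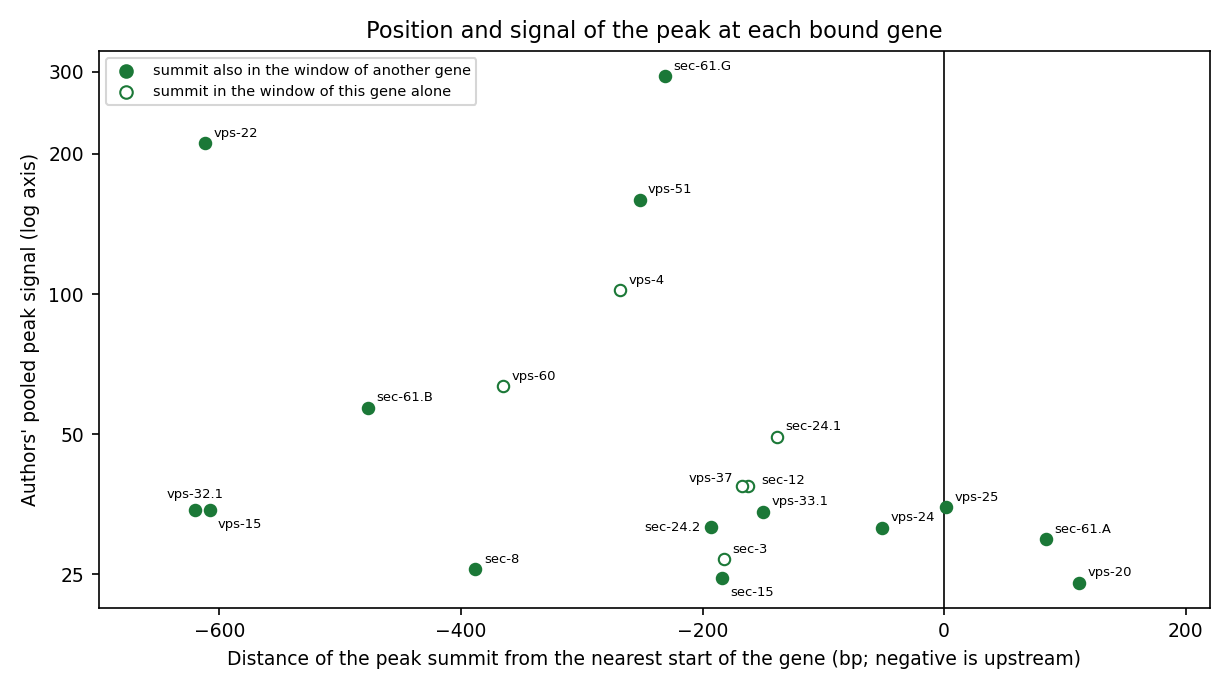
Authors' pooled peak signal (log axis) against the distance from the gene's nearest start to the summit for the 20 bound genes, with filled points where the summit was also in the window of another gene. Only sec-61.A, vps-20 and vps-25 lie downstream of the start, and vps-4 is the strongest of the 6 peaks that fall in the window of 1 gene alone.

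Most of the bound sec- and vps- genes had their nearest protein-coding gene lying wholly upstream on the opposite strand, as did most bound genes in general. Among all 1842 bound genes, 904 had it within 1000 bp and 369 farther away. Of 17 sec- and vps- genes with such a neighbour within 1000 bp, 11 were bound, against 25.8% of all genes in this layout. Of 9 where it was farther away 6 were, against 6.63%. These 6 include vps-22, whose wholly upstream neighbour is nca-2, at a gap of 3077 bp. The same-strand gene C27F2.9 starts closer upstream of vps-22 but overlaps it, so it was passed over here. A same-strand gene ended within 500 bp upstream of 18 sec- and vps- genes. Of these 2 were bound (sec-3 and sec-12, with gaps of 313 and 277 bp), against 7.6% of all such genes. Of 6 genes with a same-strand neighbour farther off, 1 was bound (vps-37), against 4.01%. The close same-strand layout held 36% of these genes and 18.1% of all genes. Unbound in this layout were the exocyst genes sec-6 and sec-10, the ESCRT gene vps-28, sec-11, sec-16A.2 and sec-20. So were the retromer genes vps-26, vps-29 and vps-35, the GARP genes vps-53 and vps-54, vps-8, vps-11, vps-16, vps-34 and vps-41. Operons were not annotated in the files used here, so this layout does not tell which genes lie in one. Among the 16 unbound genes of this layout, the gene just upstream was itself bound at 2, namely txdc-9 before vps-16 and F59G1.8 before vps-35, with optimal IDR summits 1264 and 1363 bp upstream of the vps- genes.

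**Figure D4:**
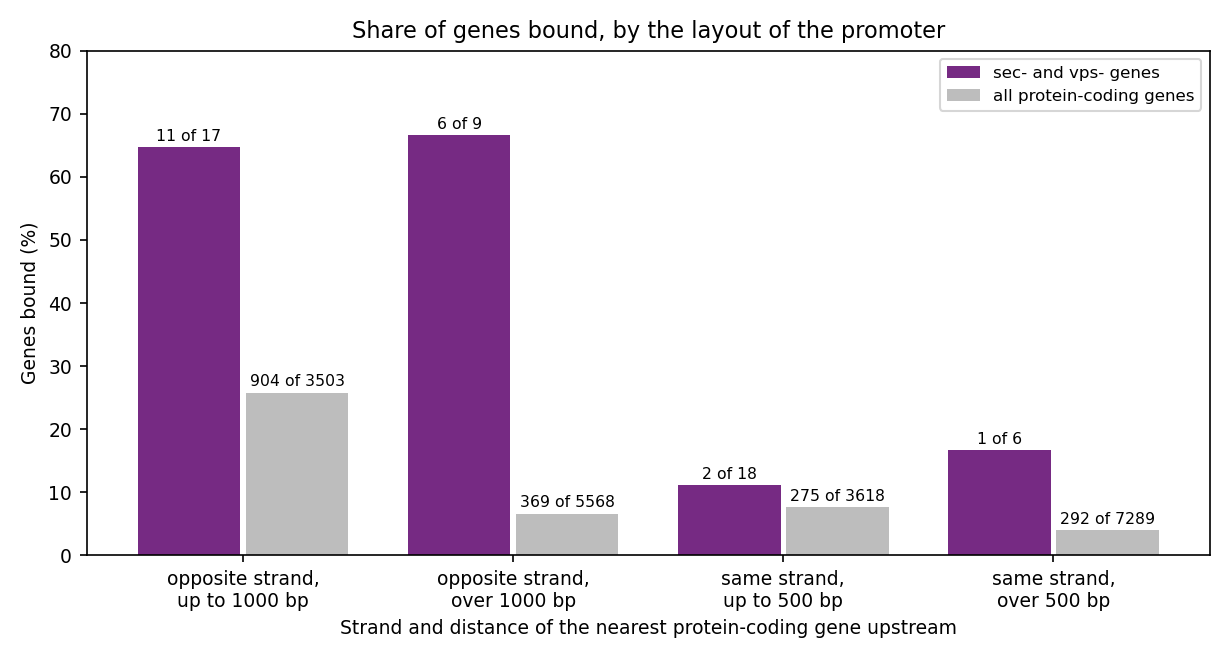
Share of genes bound (%), by the strand and distance of the nearest protein-coding gene lying wholly upstream, for sec- and vps- genes (left bar of each pair) and all protein-coding genes (right bar), with counts above the bars. Of the 20 bound sec- and vps- genes, 17 have an opposite-strand neighbour, as do most bound genes in general. Of the 18 with a close same-strand neighbour 2 are bound, against 7.6% of all such genes.

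The E2F-type sequence was at few of these peaks. It lay within 100 bp of 3 of the 20 summits (15%), against 36.7% of all 1546 optimal IDR summits, 8.82% of the best pooled summits of unbound genes and 6.39% of windows of the same 201 bp centred 100 bp upstream of all transcript starts. The sequence is more frequent at strong peaks, so strong and weak peaks were also read apart. Among the 773 strongest peaks 2 of 7 summits held it, against 46.2% of all summits there, and among the other 773 peaks 1 of 13 did, against 27.2%. The reversed control sequences (CGCCCTT or CGCCGTT or CGCGCTT or CGCGGTT) lay at 5 of the 20 summits, against 13.8% of all optimal IDR summits, so here the control was found more often than the motif. Strong peaks without the E2F-type sequence within 100 bp included those of vps-22, vps-51 and vps-4.

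The CHR-type sequence was at 11 of the 20 summits (55%), against 63.9% of all optimal IDR summits and 55.3% of the windows upstream of all starts. Its reversed control (AAGCTT or AAGTTT) was at 6 of 20, against 30.3%. The share at bound genes was thus near that of promoters at large. Among the 23 best pooled summits of the unbound sec- and vps- genes, 2 held the E2F-type sequence, against 8.82% for all unbound genes. The CHR-type sequence was at 14 of the 23, against 54.6%. Their reversed controls were at 3 and 11 of the 23, against 4.48% and 34.1%.

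Partners of these complexes that carry other names were bound in part as well, and their counts stand beside the 9.22% of all protein-coding genes. Of 10 genes around the translocon 2 were bound, namely the signal peptidase gene spcs-2 (signal 76.6) and trap-3 (57.0), as were 3 of 12 genes of ER exit and fusion (syx-5 at 31.8, nsf-1 at 31.5 and sar-1, the COPII GTPase, at 28). Both exoc-7, an exocyst subunit (28.8), and ral-1, its GTPase regulator (26.2), were bound out of 3 exocyst partners. Of 8 ESCRT partners 2 were bound, chmp-7 (102) and mvb-12 (38.3), as were 4 of 11 genes of HOPS and fusion, led by the GTPase gene rab-5 (99.4), spe-39 (83.5) and ccz-1 (50.1). Of 10 genes of retromer partners and recycling 4 were bound, led by rme-1 (59.1), rme-8 (35.9) and rab-11.1 (29.4), and so was 1 of 2 kinase partners (epg-8, 39.1). Several of these peaks were shared, as those of spcs-2 with mrg-1, spe-39 with spn-4 and rab-5 with nmat-2. The trap-3 peak is the one already counted at sec-61.B.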

How the data were processed

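DPL-1 ChIP-seq peaks of 2 replicates were analysed on ce11. Per the deposited description files, a replicate's list came from its own alignment set against a control, the pooled list from both replicates, and the optimal IDR list was derived from these. The aligner and the peak caller, with their versions, were not given in the sources used here. The authors' deposited signal value per peak, assigned against the control, was used only to rank and describe peaks within a list. The ce10 lists, the control and the reads were not used here.

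Promoter windows came from 19985 protein-coding genes of Ensembl release 115, and bases from RefSeq WBcel235, with Python 3.11.15 scripts whose assignment and motif search were checked on planted peaks. Replicate peaks were matched within 100 bp. Complexes were set by symbol, and every member is named. Wider lists name up to 3 bound genes of highest signal each, plus any partner discussed, and 1 listed gene is not reported here. Members and lists were chosen with earlier results of these data known, and the promoter layout was added later. With 1 group, and genes not being replicates, no test was made.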

Additional observations from a re-analysis of the deposited data

How the results depend on the processing

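Depth is unknown, so weak peaks cannot be told from undetected ones. The 20 bound genes became 13 (26%, against 6.52% of all genes) by nearest start within 1000 bp and 7 (14%, against 5.12%) with the 773 strongest peaks alone. Leaving out a replicate (the 1546 strongest peaks of the other) gave 15 each time, with 6 of the 20 lost and 1 other gene gained. The gained gene was vps-28 without replicate 1 and sec-31 without replicate 2. Of the 20, 4 stayed bound in all 7 alternatives (sec-24.1, sec-61.G, vps-4 and vps-60), and 25 of 30 unbound genes stayed unbound.

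The translocon had 2 bound genes in place of 3 by nearest start, with the 773 strongest peaks and without replicate 2. By nearest start the exocyst had 1, the kinase 0 and GARP 0. The 773 strongest peaks gave 1 for COPII, 3 for ESCRT and 0 for the exocyst, HOPS and the kinase. Widening the window to 2000 bp before and 1000 bp after a start gave 2 for HOPS, 1 for retromer (vps-35) and 2 for GARP, with 11.5% of all genes bound, and narrowing it to 500 and 250 bp gave 0 for the kinase, with 7.56% of all genes bound. Leaving out each replicate in turn gave 5 to 6 for ESCRT, 1 to 2 for the exocyst and 0 to 1 for HOPS and the kinase. Without replicate 1 the lost genes included vps-33.1, and without replicate 2 sec-61.A. Matching summits within 250 bp paired 19 of the 20 peaks in both replicates, in place of 17. The E2F-type sequence was at 6 summits within 250 bp and at 1 with a leading T added to the motif, and the CHR-type at 4 within 50 bp and 18 within 250 bp. The cause was not tested.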

Other observations

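Other trafficking complexes were bound at varied shares. COPI, the coat of Golgi-to-ER vesicles, had 3 of 7 genes bound, namely copz-1 (signal 33.9), copg-1 (29.8) and copb-2 (26), all in the weaker part of the optimal list. Clathrin and adaptor genes had 6 of 16, led by the light chain gene clic-1 (51.4), the heavy chain gene chc-1 (39.3) and aps-3 (36.7), and they included dpy-23 on X (24.8). The Golgi tether COG had 1 of 7 (cogc-2 at 93.3, shared with the kinesin gene klp-18), and the TRAPP tether had 1 of 9 (trpp-10 at 50.9). Over all wider lists 29 of 95 annotated genes (30.5%) were bound, against 9.22% of all protein-coding genes, and 23 with the narrower window or 21 by nearest start. The 29 include trap-3, whose peak is also that of sec-61.B.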
